A study of Homo sapiens with 6 samples.

Results

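The genes described here encode the nuclear part of the mitochondrial respiratory chain and ATP synthase. Their transcripts were counted in an osteosarcoma line, U-2 OS, with and without depletion of the RNA-binding protein SFPQ. They were chosen by a rule on gene class, chromosome and symbol, with earlier results of these data known. The rule took protein-coding genes that do not lie on the mitochondrial chromosome. Their symbol starts with NDUFA, NDUFB, NDUFC, NDUFS, NDUFV, SDHA to SDHD, UQCR, ATP5, or COX followed by a digit from 4 to 8. This gave 102 of the 60664 genes counted, of which 46 belong to complex I, 8 to complex II, 9 to complex III, 19 to complex IV and 20 to complex V, with NDUFA4 and its paralog NDUFA4L2 placed in complex IV. By role, 87 encode subunits, 12 encode assembly factors (names in NDUFAF and SDHAF), 1 encodes the ATP synthase inhibitor ATP5IF1, and 2 are readthrough genes that join a member to its neighbour. The symbols also brought in 201 pseudogenes and non-coding genes, 187 of them processed pseudogenes named after members, which were left out.

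U-2 OS is an established human osteosarcoma cell line, which the labels describe as polyploid. The cells were transfected by lipofection with control siRNA (siControl) or with siRNA against SFPQ (siSFPQ), at 30 nM, without any other difference in the labels, and each condition had 3 libraries of polyadenylated RNA. The study describes the libraries of a condition as biological replicates, and the labels number them without saying more about the cultures; p-values measure the spread between these libraries. Total counts were 46142855, 47119203 and 46830736 in siControl and 43469321, 45511855 and 45543610 in siSFPQ, and 3 counts, the limit that a count of 0 allows, correspond to at most 0.0676 CPM (counts per 1000000 of the effective library size).

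The respiratory chain passes electrons from NADH (through complex I) and succinate (through complex II) to coenzyme Q, then through complex III and cytochrome c to complex IV, which reduces oxygen. Complexes I, III and IV pump protons across the inner mitochondrial membrane, and complex V, the ATP synthase, uses the proton gradient to make ATP. All complexes other than complex II hold subunits from both the nuclear and the mitochondrial genome, so that assembly joins proteins made in different compartments with the help of dedicated assembly factors. NRF1, the ETS factor GABP and YY1 are well-known activators of the nuclear genes, and the coactivator PPARGC1A acts with them in mitochondrial biogenesis.

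The knock-down target was low in every siSFPQ library. SFPQ had 489.2, 505.8 and 476.8 CPM with control siRNA and 70.8, 82.6 and 67.9 CPM after its depletion. The latter mean was 15% of the former, and the log2 fold change was -2.73 ± 0.0498 (SE). Of the bone and mesenchymal markers, COL1A1 (mean of 2910 CPM in siControl and 2279 in siSFPQ), SPARC (2222 and 1977) and RUNX2 (57.6 and 60.1) were abundant, the epithelial markers EPCAM and CDH1 were at 5.09 and 1.10 CPM in siControl and 4.50 and 1.87 CPM in siSFPQ, and the blood marker PTPRC at 0.693 and 0.226 CPM. The mature osteoblast markers SP7, IBSP and BGLAP had at most 6 counts in any library, and COL1A2 about 1 CPM or less in both conditions (0.832 and 1.09). The share of counts on the mitochondrial chromosome was 4.36%, 3.88% and 4.24% in siControl and 6.18%, 5.5% and 5.31% in siSFPQ. Being from bulk RNA, the values cannot separate a change in RNA per cell from a change in the share of cells that hold it.

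Most of the nuclear-encoded genes stayed close to their control level. Of the 102 members, 97 had at least 10 counts in total and entered the quasi-likelihood test of edgeR, fitted over 29022 genes; COX4I2, COX7B2 and the readthrough gene NDUFC2-KCTD14 were at 0 in all libraries, COX6A2 had 1 count and COX8C 5 counts in total. At an adjusted p under 0.05, 16 of the 97 rose (16.5%, against 22.4% of all genes tested) and 19 fell (19.6%, against 22.1%), together 35 or 36.1%, against 44.6% of all genes tested. Among the 91 members with a mean of at least 1 CPM, 33 were called (36.3%), and among all protein-coding genes of that level 67.8%. The median log2 fold change of the tested members was -0.01, that of all genes tested 0.019, and 77 of the 97 (79.4%) lay within 0.25 of 0, against 34.3% of all genes and 49.1% of protein-coding genes of at least 1 CPM. The siControl and siSFPQ libraries did not overlap for 44 of the 97, or 45.4% of them, against 52.3% of all genes tested.

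Large changes were few. At an adjusted p under 0.05, only NDUFV2, COX6B2 and SDHAF2 rose by over 0.5 on the log2 scale. That was 3 of 97, against 12.9% of all genes tested. NDUFA4L2, NDUFS4, NDUFAF2 and NDUFA10 fell by over 0.5 at that threshold (4 of 97, against 12% of all genes tested). Past 1.5 on the log2 scale in either direction were NDUFV2 and NDUFA4L2, against 10.3% of all genes tested, and COX6B2 and NDUFA4L2 were below 1 CPM in both conditions. With library size alone in place of TMM, the median of all genes tested moved to 0.083 and that of the members to 0.052, and the members' calls became 26 rises and 14 falls (65% rising, against 45.7% with TMM). Of all genes called, 58.1% were then rising, against 50.4% with TMM.

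**Figure D1:**
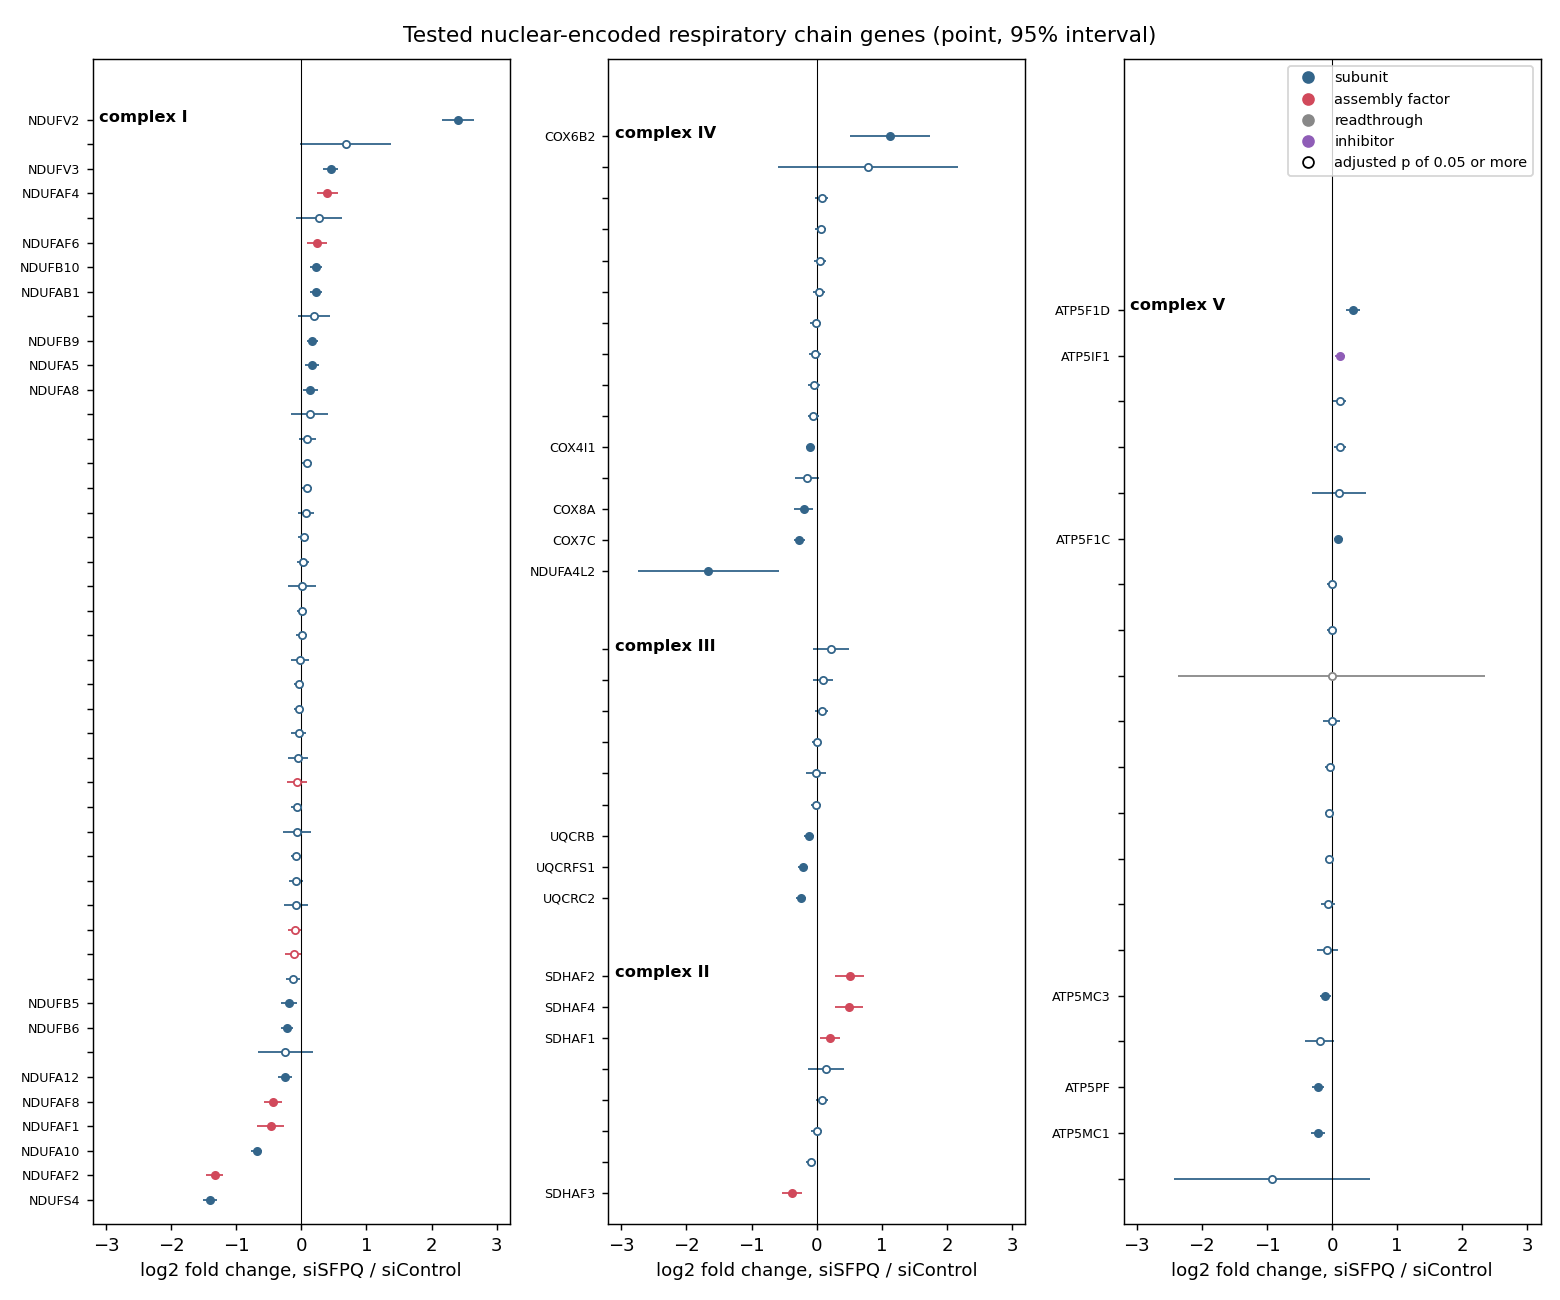
Log2 fold change of siSFPQ over siControl for the 97 tested members, grouped by complex and sorted by value, with bars of the 95% interval; colours give the role, and filled points, which are named on the axis, have an adjusted p under 0.05. Most points sit near 0, with NDUFS4 and NDUFAF2 far to the left and NDUFV2 far to the right in complex I.

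In complex I, the NADH dehydrogenase, the accessory subunit NDUFS4, loss of which is a known cause of Leigh syndrome, was the subunit with the largest fall among those above 1 CPM. It had 2141, 1989 and 2045 counts in siControl and 726, 839 and 784 in siSFPQ, which is 45.1 ± 1.72 against 17.1 ± 0.803 CPM (mean ± SD, n = 3). The groups were far apart, and the log2 fold change was -1.40 ± 0.0571 (SE, adjusted p = 2.46e-20, edgeR), leaving 37.9% of the control level. NDUFA10, another accessory subunit, was the second of the falls, with 100.5, 98.3 and 102 CPM in siControl and 62.3, 62.7 and 61.8 CPM in siSFPQ. Its log2 fold change was -0.69 ± 0.0404 (adjusted p = 5.58e-16, edgeR), with 100.2 ± 1.85 and 62.3 ± 0.451 CPM (mean ± SD, n = 3). NDUFA12 (-0.25), NDUFB6 (-0.22) and NDUFB5 (-0.19) completed the falls among complex I subunits.

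NDUFV3, an accessory subunit of the NADH-binding module, was the clearest rise among the well-counted complex I subunits. It had 21.6, 22.7 and 23.3 CPM in siControl and 30.9, 31.1 and 30.4 CPM in siSFPQ, a log2 fold change of 0.45 ± 0.0572 (adjusted p = 4.57e-08, edgeR). Smaller rises were those of NDUFB10 (0.23), NDUFAB1, the mitochondrial acyl carrier protein (0.22), NDUFB9 (0.17), NDUFA5 (0.17) and NDUFA8 (0.14). In total 7 of the 37 complex I subunits rose, 5 fell and 25 did not pass the test (32.4% called, against 44.6% of all genes tested). The core subunits NDUFV1 (-0.08, 95% interval -0.16 to -0.00) and NDUFS1 (-0.04, -0.12 to 0.03) of the NADH-binding module did not pass the test.

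NDUFV2, an iron-sulfur core subunit of the same module, had the largest rise of the members, from 98, 81 and 74 counts to 433, 509 and 406, a log2 fold change of 2.41 ± 0.127 (adjusted p = 2.78e-17, edgeR). Its counts were low in both conditions for a core subunit: 0.681 CPM per kb of exon in siControl and 3.62 in siSFPQ, against 20.8 and 19.7 CPM per kb for NDUFV1. In the annotation 90% of its canonical transcript lies within exons of a long non-coding gene on the same strand (ENSG00000265257), which was at 0 in all 6 libraries. The study describes a stranded mRNA library, while the labels name only the kit family. How reads in such shared exons were assigned to genes, and which strand setting was used in counting, are not given in the sources used here, so that the counts of NDUFV2 can stand for a part of its transcripts only. The same holds for 11 members, 10 of them tested, with 50% or more of their canonical transcript inside exons of another gene, a limit chosen after the values were seen. Among these were the core subunits SDHA (69.4%; 0.372 CPM per kb in siControl, against 25.9 for SDHB) and NDUFS7 (51.3%, on the opposite strand; 0.216, against 14.7 for NDUFS8), and also NDUFA7, NDUFA11, NDUFA13, NDUFB8, ATP5PO and SDHAF2. In the whole table, protein-coding genes with no shared exon had a median of 442 counts per library (12446 genes). Those with over 50% to 90% shared had a median of 15.8 on the same strand (340 genes) and 198 on the opposite strand (245 genes). Those with over 90% shared had a median of 0 on the same strand (575 genes) and 0.333 on the opposite strand (35 genes). Without these members 14 of 87 rose (16.1%, against 22.4% of all genes tested) and 19 fell (21.8%, against 22.1%). COX6B2 was the called rise over 0.5 that remained.

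Of the 12 assembly factors 9 were called (75%), 5 rising and 4 falling, and of the 83 tested subunits 25 (30.1%), 10 rising and 15 falling, against 44.6% of all genes tested and 67.8% of protein-coding genes of at least 1 CPM; the difference between these shares was not tested. NDUFAF2, a paralog of NDUFA12 that acts late in complex I assembly, fell from 27.9, 28 and 28.6 CPM to 10.5, 11.6 and 11.4 CPM. Its log2 fold change of -1.33 ± 0.0671 (adjusted p = 9.18e-18, edgeR) left 39.8% of the control level, close to the value for NDUFS4. NDUFAF1, which acts on the membrane arm, fell by 0.47 and NDUFAF8, the partner of NDUFAF5, by 0.43 on the log2 scale. NDUFAF4, a factor for the coenzyme Q-binding module, had 12.8, 10.4 and 10.4 CPM in siControl and 15.1, 13.9 and 15.3 CPM in siSFPQ, a log2 fold change of 0.40 ± 0.0844 (adjusted p = 0.000176, edgeR), and NDUFAF6 rose by 0.25. NDUFAF3 (-0.12), NDUFAF5 (-0.06) and NDUFAF7 (-0.10) did not pass the test. Together the 8 complex I assembly factors had a summed level of 160.9 ± 4.39 CPM in siControl and 132.9 ± 2.20 CPM in siSFPQ, with the largest differences in NDUFAF2 (28.1 and 11.2 CPM) and NDUFAF8 (39.3 and 29.1 CPM).

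**Figure D2:**
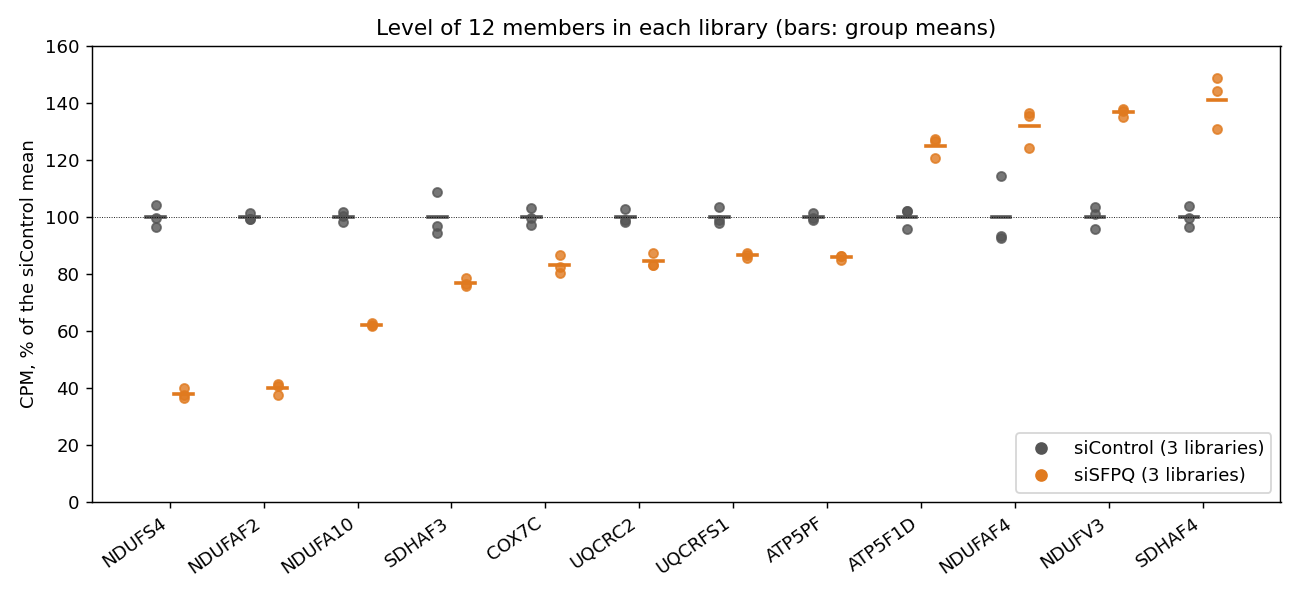
Level of 12 members in each of the 6 libraries, in CPM as a percentage of the siControl mean of the gene, with a bar at each group mean. NDUFS4 and NDUFAF2 lie near 40% and NDUFA10 near 60% in all siSFPQ libraries, and for each of the 12 genes the groups do not overlap.

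Complex II, succinate dehydrogenase, had 0 calls among its 4 subunits with edgeR as described or with DESeq2 (1 of them, SDHD, had an unadjusted p under 0.05), and 4 calls among its 4 assembly factors with edgeR, where 67.8% of protein-coding genes of at least 1 CPM were called. In other fits SDHC was called as rising with library size alone (adjusted p = 0.0076) and without siControl replicate 3 (0.0185), and SDHD as falling with the mitochondrial genes left out of the scaling (0.0462) and without siControl replicate 1 (0.0401). SDHB had 63.3 ± 1.68 CPM in siControl and 63.3 ± 0.533 in siSFPQ, with a 95% interval of the log2 fold change from -0.08 to 0.08. The interval ran from -0.01 to 0.18 for SDHC, from -0.17 to -0.01 for SDHD (adjusted p = 0.0758, edgeR) and from -0.13 to 0.42 for SDHA, which has the shared exons described above. Of the factors, SDHAF4, which helps to join SDHA with SDHB, rose from 4.58, 4.26 and 4.41 CPM to 6.56, 5.78 and 6.36 CPM (log2 fold change 0.50 ± 0.11). SDHAF2, needed for the attachment of FAD to SDHA, rose to a like degree (0.50 ± 0.114), and SDHAF1, which acts on the iron-sulfur clusters of SDHB, by 0.21 (adjusted p = 0.028, edgeR), a call that was lost with DESeq2 (adjusted p = 0.0588) and without any 1 of siControl replicates 2 and 3 and siSFPQ replicates 2 and 3. SDHAF3, which acts at the same step as SDHAF1, fell from 15.2, 17.5 and 15.6 CPM to 12.3, 12.2 and 12.7 CPM (-0.38 ± 0.0764, adjusted p = 9.39e-05, edgeR).

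Complex III, the cytochrome bc1 complex, had 3 falls among its 9 members, each of less than 0.25 on the log2 scale, and 0 rises, also at an unadjusted p under 0.05 and with DESeq2; of all genes tested 22.1% fell and 22.4% rose. UQCRC2, a core protein, had 121.2, 122.2 and 127 CPM in siControl and 102.8, 102.5 and 107.8 CPM in siSFPQ (-0.24 ± 0.0394, adjusted p = 4.18e-06, edgeR). UQCRFS1, the Rieske iron-sulfur protein, went from 159.6 ± 4.73 to 137.9 ± 1.33 CPM (-0.21 ± 0.0377, adjusted p = 1.93e-05, edgeR). The groups did not overlap for either gene, and the siSFPQ means were 84.5% and 86.4% of the control level. UQCRB fell by 0.12 (adjusted p = 0.0216, edgeR), and this call was lost with library size alone (adjusted p = 0.302) and without siControl replicate 3 (0.0842), siSFPQ replicate 1 (0.117) or siSFPQ replicate 3 (0.067). The other core protein, UQCRC1, stayed at 184.2 and 183.9 CPM, and the hinge protein UQCRH at 104.9 and 104.1 CPM. In other fits UQCRHL was called as rising without siControl replicate 3 (log2 fold change 0.43, adjusted p = 0.0186, edgeR). A complex III member was also called as rising with library size alone.

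In complex IV, cytochrome c oxidase, the clearest fall was that of COX7C, a small nuclear subunit. It had 143, 134.4 and 138.1 CPM in siControl and 114.2, 111.4 and 120.1 CPM in siSFPQ (-0.27 ± 0.04, adjusted p = 1.17e-06, edgeR). COX4I1 fell by 0.10 (adjusted p = 0.0206, edgeR) and COX8A by 0.20 (adjusted p = 0.0285), and neither call held with library size alone (adjusted p = 0.398 and 0.147). The COX4I1 call was also lost without siSFPQ replicate 1 (0.114). The COX8A call was also lost with DESeq2 (0.0637) and without siControl replicate 1 (0.0925) or 3 (log2 fold change -0.11, 0.273) or siSFPQ replicate 1 (0.0743) or 2 (0.159). The 9 other subunits above 1 CPM lay between -0.15 (COX6A1) and 0.08 (COX7B) and did not pass the test. In other fits COX6A1 was called as falling without siControl replicate 2 (log2 fold change -0.28, adjusted p = 0.00987, edgeR). COX7A2L was called as rising with library size alone (0.00948) and without siControl replicate 3 (0.024), and COX7B with library size alone (0.0246).

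The tissue-specific isoforms of complex IV were at or near 0 in both conditions, far below their ubiquitous partners. COX4I2, COX7B2, the muscle isoform COX6A2 and the testis isoform COX8C were not tested, and COX7A1 had between 1 and 12 counts per library. COX6B2, a testis isoform, had 25, 15 and 21 counts in siControl and 54, 36 and 44 in siSFPQ (log2 fold change 1.13 ± 0.313, adjusted p = 0.00337, edgeR), against 3699 counts or more in each library for COX6B1. NDUFA4L2, a hypoxia-responsive paralog of NDUFA4, had 40, 11 and 13 counts in siControl and 5, 4 and 11 in siSFPQ, so that the lowest siControl and the highest siSFPQ library had the same count. Its log2 fold change was -1.67 ± 0.552 (adjusted p = 0.0136, edgeR), and without siControl replicate 1, the library with 40 counts, it was -0.84 (adjusted p = 0.271); the call was also lost without siSFPQ replicate 1 (0.0735) or 2 (0.0766). NDUFA4 itself was at 131.9 ± 0.779 and 127.1 ± 8.32 CPM and did not pass the test.

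In complex V, the ATP synthase, 3 of 20 members rose and 3 fell (30% called, against 44.6% of all genes tested). ATP5F1D, the delta subunit of the central stalk, had 30.7, 32.7 and 32.6 CPM in siControl and 40.8, 38.6 and 40.6 CPM in siSFPQ (0.32 ± 0.0518, adjusted p = 3.45e-06, edgeR). ATP5F1C, the gamma subunit, rose by 0.10 and the inhibitor ATP5IF1 by 0.12, with adjusted p-values of 0.0353 and 0.0201 (edgeR). The ATP5F1C call was lost with a filter of at least 1 count (adjusted p = 0.0782), with the mitochondrial genes left out of the scaling (0.0611) and without siControl replicate 1 (0.0585) or 2 (0.107) or siSFPQ replicate 2 (0.0537) or 3 (0.0901), and that of ATP5IF1 without siControl replicate 2 (0.0809) or 3 (0.0669) or siSFPQ replicate 2 (0.0899). The catalytic beta subunit ATP5F1B and the alpha subunit ATP5F1A, the most abundant members by count, were within 0.05 of 0, with intervals from -0.12 to 0.03 and from -0.08 to 0.07. ATP5PF, a peripheral stalk subunit, had 48.5 ± 0.571 CPM in siControl and 41.7 ± 0.351 CPM in siSFPQ (-0.22 ± 0.0465, adjusted p = 0.000182, edgeR). Of the 3 genes that encode the same mature c-ring subunit, ATP5MC1 fell by 0.22 (adjusted p = 0.00114) and ATP5MC3 by 0.10 (adjusted p = 0.0384), and ATP5MC2, which had the largest counts of them, was at 170.2 and 170.7 CPM. The ATP5MC3 call was lost with library size alone (log2 fold change -0.04, adjusted p = 0.449), with DESeq2 (0.058) and without siControl replicate 1 (-0.07, 0.201) or siSFPQ replicate 1 (0.179) or 2 (0.116).

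Summed per kb over subunits, the siControl and siSFPQ libraries overlapped for each complex. The subunits of complex I had 891.2 ± 21.9 CPM per kb in siControl and 882.4 ± 17.5 in siSFPQ, a ratio of 0.99, those of complex II a ratio of 1.01 and those of complex V a ratio of 0.993. Lower ratios were those of complex III, with 270.1 ± 8.01 against 259.8 ± 9.61 CPM per kb (0.962), and complex IV, with 520.9 ± 19.1 against 497.4 ± 22.9 (0.955). Summed as CPM without regard to length, the complex III subunits had 751.2, 722.1 and 743.6 CPM in siControl and 691.8, 677.8 and 717.2 CPM in siSFPQ, which did not overlap. Of 16 nuclear subunits taken as core (the 7 of complex I, the 4 of complex II, the core and Rieske proteins of complex III, and the alpha and beta subunits of complex V), 3 were called (18.8%, against 44.6% of all genes tested and 67.8% of protein-coding genes of at least 1 CPM): NDUFV2, UQCRC2 and UQCRFS1.

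**Figure D3:**
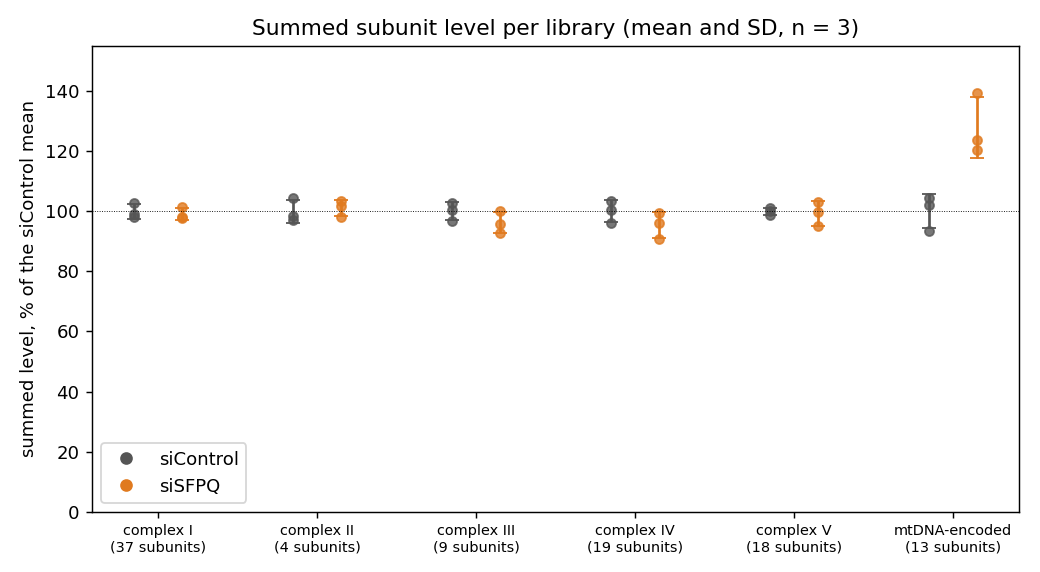
Summed level of the subunits of each complex in every library, as a percentage of the siControl mean (CPM per kb of exon for the nuclear-encoded subunits, CPM for the 13 mtDNA-encoded subunits), with mean and SD of 3 libraries. On these scales the siSFPQ points of the nuclear-encoded sums overlap with those of siControl, while the 3 siSFPQ points of the mtDNA-encoded sum lie above all siControl points.

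The 3 falls over 0.5 among members above 1 CPM were those of the 3 tested members whose canonical transcript has the longest genomic span. The tested members had a median genomic span of the canonical transcript of 9.24 kb, against 29.4 kb for protein-coding genes of at least 1 CPM. By this measure the only tested members over 100 kb are NDUFS4 (123 kb; gene at chr5:53560633-53683338) and NDUFAF2 (208 kb; gene at chr5:60945177-61154531), and the only ones from 50 to 100 kb are NDUFA10 (68 kb) and SDHAF3 (64.1 kb; gene at chr7:97117698-97181763), all GRCh38; each of the 4 fell. The whole NDUFA10 gene, with all its transcripts, is longer, at 133294 bases (chr2:239892450-240025743). By the span of the whole gene the order differs: the longest tested member is NDUFAF6 (220923 bases), which rose by 0.25, and NDUFA12 (108452 bases) fell by only 0.25. Of the 93 members of up to 50 kb, 16 rose and 15 fell, with a median of -0.008, where 22.4% of all genes tested rose and 22.1% fell. Over all protein-coding genes of at least 1 CPM, 15.5% fell by over 0.5, and by span the share was 6.51% up to 50 kb, 15.8% from 50 to 100 kb and 47.1% over 100 kb (1125 of 2388 genes). The span limits were chosen after the values were seen, and the part of the span in these falls was not tested.

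**Figure D4:**
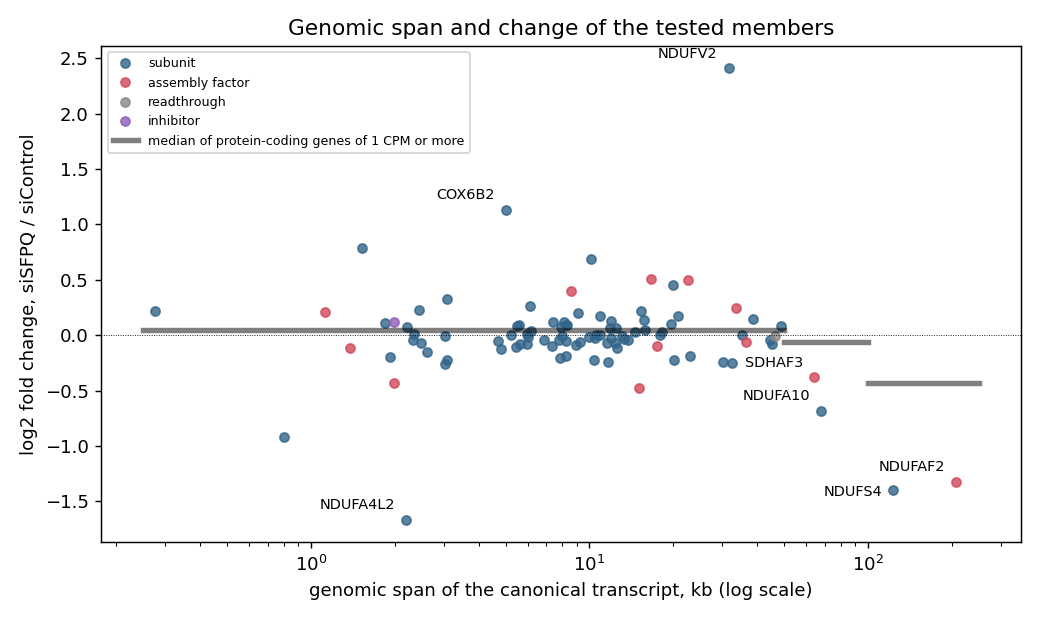
Log2 fold change of the 97 tested members against the genomic span of their canonical transcript (kb, log axis), with the median of all protein-coding genes of at least 1 CPM in each of 3 span classes as grey lines. The 4 members over 50 kb all lie below 0, as does the grey line over 100 kb (-0.44).

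Neighbours of these genes were taken as the nearest protein-coding genes of at least 1 CPM on each side, read from the same fit. ERCC8, which starts 104 bases from NDUFAF2 on the opposite strand and spans 78.6 kb, did not pass the test (0.08, adjusted p = 0.416, edgeR), and SMIM15 on the other side fell by 0.14. For NDUFS4, the 427 kb gene ARL15, 200604 bases away, fell by 3.91 on the log2 scale. FST, of 6.51 kb and 73499 bases away, fell by 0.63. For NDUFA10, COPS9, 100820 bases away, fell by 0.41. HDAC4, of 353 kb and 490796 bases away, did not pass the test (0.22, adjusted p = 0.168, edgeR). Both neighbours of NDUFV2 did not pass the test: MTCL1 (127 kb, 269852 bases away, 0.03) and ANKRD12 (149 kb, 1883 bases away, 0.09).

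Promoters were compared for motifs of the known activators. For 82 of the 102 members the RefSeq promoter table (GRCh38.p14) had an entry. In the 250 bases before the start, on either strand, the NRF1-like motif GCGCANGCG was present in 23 of 82 members (28%, against 10.3% of 15345 protein-coding genes), the ETS/GABP-like motif CCGGAAG in 22 (26.8%, against 12.4%) and the YY1-like motif ATGGCGG in 8 (9.76%, against 3.17%); none of these motifs contains another. The 22 tested members with the NRF1-like motif had 4 rises, 3 falls and a median log2 fold change of 0.001, and the 56 without it had 9 rises, 12 falls and a median of -0.013, where 22.4% of all genes tested rose and 22.1% fell. For the ETS/GABP-like motif the medians were -0.019 with and -0.007 without it, and for the YY1-like motif 0.071 with it (8 members, 2 rises and 1 fall) and -0.013 without it.

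The sequences printed here are the bases before the start of the 3 members with the largest falls above 1 CPM, none of which holds any of the motifs in its 250 bases, and of a fallen and a risen member that do. Bases within an annotated exon of any gene were left out, each sequence is read 5′ to 3′ on the strand of the gene, and capitals mark motif matches. The stretches are chr5:53560389-53560632 (+) for NDUFS4, chr5:60945074-60945176 (+) for NDUFAF2, chr2:240025398-240025571 (-) for NDUFA10, chr7:97117448-97117697 (+) for SDHAF3 and chr16:23596317-23596566 (-) for NDUFAB1, on GRCh38.p14.
NDUFS4: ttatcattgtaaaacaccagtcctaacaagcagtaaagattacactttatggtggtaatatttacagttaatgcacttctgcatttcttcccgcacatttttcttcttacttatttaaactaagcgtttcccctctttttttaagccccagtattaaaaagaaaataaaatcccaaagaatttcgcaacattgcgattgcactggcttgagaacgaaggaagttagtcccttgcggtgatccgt
NDUFAF2: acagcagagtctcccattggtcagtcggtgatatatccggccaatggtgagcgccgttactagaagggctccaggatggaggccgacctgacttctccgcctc
NDUFA10: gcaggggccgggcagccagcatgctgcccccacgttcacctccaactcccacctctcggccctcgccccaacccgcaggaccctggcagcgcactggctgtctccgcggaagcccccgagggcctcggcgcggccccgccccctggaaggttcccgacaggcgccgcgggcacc
SDHAF3: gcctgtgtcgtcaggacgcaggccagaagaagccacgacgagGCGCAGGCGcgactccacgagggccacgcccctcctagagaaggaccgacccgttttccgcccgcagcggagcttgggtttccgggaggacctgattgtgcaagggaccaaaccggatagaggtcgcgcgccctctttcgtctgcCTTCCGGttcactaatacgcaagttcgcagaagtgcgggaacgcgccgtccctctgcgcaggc
NDUFAB1: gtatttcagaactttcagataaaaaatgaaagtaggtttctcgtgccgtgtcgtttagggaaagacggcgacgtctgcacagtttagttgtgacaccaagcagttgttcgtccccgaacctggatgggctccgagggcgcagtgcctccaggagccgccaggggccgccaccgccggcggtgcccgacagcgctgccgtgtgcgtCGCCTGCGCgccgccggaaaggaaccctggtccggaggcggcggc

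In SDHAF3 (log2 fold change -0.38) the capitals mark an NRF1-like and an ETS/GABP-like match, and in NDUFAB1 (0.22) an NRF1-like match; these members were picked as 1 that fell and 1 that rose. A match is a description of letters and not a measured binding site.

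The mitochondrially encoded partners of these subunits were higher in siSFPQ. Of the 13 subunits encoded by mitochondrial DNA 12 rose with edgeR and 8 with DESeq2, and 0 fell with either tool or at an unadjusted p under 0.05 (edgeR), against 22.4% of all genes tested rising and 22.1% falling with edgeR, with a median log2 fold change of 0.24; MT-ND1 (0.08) did not pass the test. MT-ND4, a proton-pumping subunit of complex I, had 5904, 5083 and 5541 CPM in siControl and 8268, 7375 and 7115 CPM in siSFPQ (0.46 ± 0.0447, adjusted p = 1.43e-10, edgeR), and MT-CO1, the catalytic subunit of complex IV, rose by 0.48. The groups did not overlap for 8 of the 13 (61.5%, against 52.3% of all genes tested), and the number called as rising was 9 without siSFPQ replicate 1 and 13 with library size alone. In other fits MT-ND1 was called as rising with library size alone (adjusted p = 0.0428, edgeR) and with the replicate block (0.00387). It was also called without siControl replicate 1 (0.0227) or siSFPQ replicate 3 (0.0349). Summed, the 13 subunits had 3.701e+04 CPM in siControl and 4.73e+04 CPM in siSFPQ. They thus made up most of the mitochondrial counts, whose mean share was 4.16% and 5.66%, so that share is not a separate measure. The cause of the rises was not tested. With the mitochondrial genes left out of the scaling, 14 nuclear-encoded members rose and 21 fell.

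Regulators of mitochondrial biogenesis changed in both directions, with 8 rises and 6 falls among 17 (82.4% called, against 44.6% of all genes tested and 67.8% of protein-coding genes of at least 1 CPM). PPARGC1A, the coactivator, had 17.8, 16.3 and 15 CPM in siControl and 10.2, 9.8 and 9.68 CPM in siSFPQ (-0.73 ± 0.0802, adjusted p = 2.38e-09, edgeR). Of the related coactivators, PPRC1 rose from 86 to 109.5 CPM (0.35) and PPARGC1B (0.08) did not pass the test. The DNA-binding factors NRF1 (-0.29), GABPA (-0.30) and YY1 (-0.37) and the GABP partner subunit GABPB1 (-0.48) also fell. ESRRA, a nuclear receptor that works with PPARGC1A, rose from 22.2 to 35.1 CPM (0.66), and the factors of mitochondrial DNA transcription POLRMT (0.74), TFB2M (0.38) and TFAM (0.20) and the helicase TWNK (0.42) rose. Of the other factors of that kind TFB1M fell (-0.24, adjusted p = 0.019, edgeR), and TEFM (0.06) and MTERF1 (-0.11) did not pass the test. With library size alone the list had 8 rises and 5 falls.

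Genes that serve the chain under other symbols were read from separate lists. Of 14 genes of cytochrome c and coenzyme Q, 4 rose and 5 fell (64.3% called, against 44.6% of all genes tested and 67.8% of protein-coding genes of at least 1 CPM). Cytochrome c (CYCS, -0.08) and cytochrome c1 (CYC1, 0.07) did not pass the test. In other fits CYCS was called as falling with a filter of at least 1 count (adjusted p = 0.0492, edgeR). It was also called with the replicate block (0.0276) and without siControl replicate 1 (0.021). CYC1 was called as rising with library size alone (adjusted p = 0.00612, edgeR). Among the genes of coenzyme Q synthesis, PDSS2, which makes its side chain and spans 307 kb, fell from 13.1, 11.3 and 13.3 CPM to 2.37, 3.06 and 3.02 CPM (-2.15), and COQ5 (-0.80), COQ7 (-0.53), COQ2 (-0.34) and COQ6 (-0.23) fell, while COQ9 (0.18) and COQ8B (0.23) rose, as did HCCS (0.34), which attaches heme to cytochrome c. COQ8A was also called as rising, from 1, 3 and 2 counts in siControl to 8, 7 and 14 in siSFPQ, too few for a fold change. Of 48 further assembly factors 10 rose and 16 fell (54.2% called, between the same shares), the 5 largest falls being those of CMC1 (-1.36), a complex IV factor, NUBPL (-1.16), which delivers iron-sulfur clusters to complex I and spans 300 kb, the complex III factors UQCC1 (-0.92) and UQCC2 (-0.62), and the complex IV factor COX20 (-0.79, 28 to 61 counts per library). CMC1 and COX20 have 56.7% and 95.7% of their canonical transcript inside exons of a gene on the opposite strand, so that the limit given for shared exons holds for them, as it does for COQ6 (59.9%), COQ8A (96.3%) and TFB1M (56.8%). COX14 (0.39), UQCC3 (0.38) and TIMMDC1 (0.31) had the largest rises of that list. Of the genes over 100 kb in that list, UQCC1 (109 kb) and NUBPL fell, COX10 (139 kb, -0.17) did not pass the test and LRPPRC (110 kb) rose by 0.10.

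Central carbon metabolism upstream of the chain had shares of calls near the 67.8% of protein-coding genes of at least 1 CPM. Of 17 genes of pyruvate dehydrogenase and the citric acid cycle 6 rose and 6 fell (70.6% called), with SUCLG2 (-1.95), SUCLA2 (-0.72) and SUCLG1 (-0.47), the subunits of succinyl-CoA synthetase, all falling and DLAT (0.35), of pyruvate dehydrogenase, rising. Of 18 glycolytic genes 5 rose and 8 fell (72.2% called), from PFKP (-0.62) to ENO2 (0.53). The medians of these lists were 0.038 and -0.085.

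**Figure D5:**
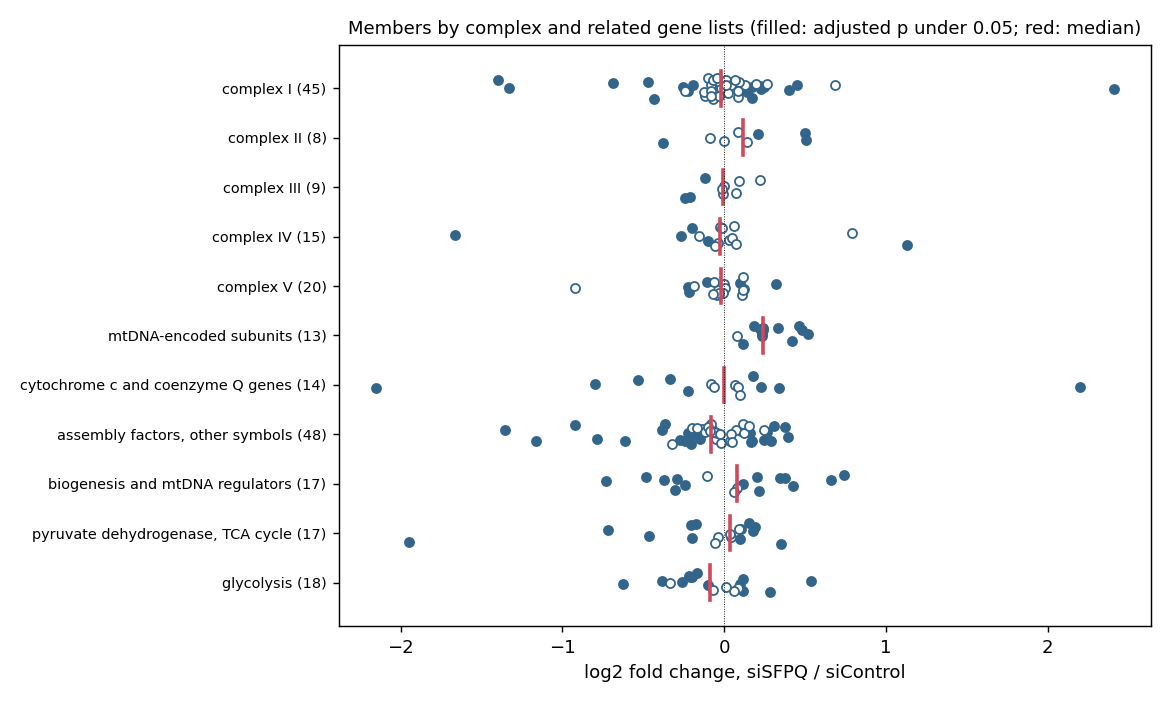
Log2 fold change of the tested members of each complex and of 6 related gene lists (number of genes in brackets); filled points have an adjusted p under 0.05 and red lines mark the median. The mtDNA-encoded subunits all lie to the right of 0, and the points of complexes I to V cluster near 0 with few outlying genes.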

How the data were processed

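RNA-seq of polyadenylated RNA from U-2 OS cells was compared between siControl and siSFPQ, 3 libraries each. The authors checked reads with FastQC, aligned them with STAR 2.7.9a to GRCh38 and deposited raw gene counts, and tested them with DESeq2; the strand setting and the handling of reads in shared exons are not given in the sources used here. Of 60664 gene IDs, 60463 (99.67%) matched GENCODE 44, which gave gene class, coordinates and exons. All count columns belonged to the 6 libraries (0 columns unused), and replicates of a group differed by 3.77 to 5.49 times the sampling noise, so none was a copy of another.

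The test was the two-sided quasi-likelihood test of edgeR (version 4.0.16, on R 4.3.3), on genes with at least 10 counts in total (scaling by TMM, Benjamini-Hochberg adjustment over 29022 genes, threshold 0.05). CPM used the TMM effective library size, levels per kb the merged exon length, and 95% intervals were 1.96 SE; floors cover counting error only. Alternatives were other filters and scalings, protein-coding genes only, DESeq2 1.42.0, a replicate block and leaving out each library. The scripts were tested on simulated data.

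The members, gene lists and tests were chosen with earlier results of these data known. Genes were named by rule: SFPQ; per complex up to 3 largest called rises and falls with at least 1 CPM and no overlap; members past 1.5 on the log2 scale; isoform pairs; core subunits; the mtDNA-encoded subunits, CYC1, CYCS, PPARGC1A, NRF1, GABPA, ESRRA and TFAM. Other genes named were chosen after their values were seen, as were the shared-exon limit and the span classes.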

Additional observations from a re-analysis of the deposited data

How the results depend on the processing

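Of 374 values of main results under an alternative, 342 stayed within the limits set for no change and 32 moved; of 924 values for named genes, 46 lost and 19 gained a call, and 0 of either kind reversed. With library size alone 26 members rose in place of 16, 5 in place of 3 by over 0.5, 1 in complex III, 4 in complex IV and 5 in complex V, and 2 fell in complex IV. The medians were then 0.052 for all members, 0.045 for complex I, 0.178 for complex II, 0.035 for complex IV and 0.042 for complex V, and the summed ratios 1.03 for complex I and 1.04 for complex V. In complex V 5 members rose with filterByExpr, with protein-coding genes only and with the replicate block, and in complex II 2 fell, SDHAF3 and SDHD, with the replicate block (SDHD adjusted p = 0.0493, edgeR) and with TMM without mitochondrial genes. Without the shared-exon members, an alternative chosen after seeing the data, 1 member rose by over 0.5 and 1 was past 1.5. The cause of these differences was not tested.

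Leaving out 1 library gave 13 to 18 rising and 13 to 22 falling members. The counts ranged from 2 to 5 for rises over 0.5 (5 without siControl replicate 1), 1 to 2 past 1.5, 1 to 2 for falls in complex II (2 without siControl replicate 1), 0 to 1 for rises in complex III, 1 to 2 for rises and 1 to 5 for falls in complex IV, and 2 to 5 for falls in complex V, and the complex II median from 0.046 to 0.141. NDUFS4 ranged from -1.45 to -1.36. With the replicate block 19 members rose and 21 fell. Same-numbered libraries had correlations of 0.00191, 0.0121 and 0.0153 in their deviations from the group means over 29022 genes. Taken over all genes, many of them with few counts, these values cannot show whether same-numbered libraries share more than a number. DESeq2 called 14 rises and 17 falls. Members at 1 to 12 counts per library are limited by depth.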
